A study of Homo sapiens with 6 samples.

Results

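The genes described here are the 10 that carry the mitotic switch, namely the cyclin genes CCNA2, CCNB1 and CCNB2, the kinase gene CDK1, the phosphatase genes CDC25A, CDC25B and CDC25C, the inhibitory kinase genes WEE1 and PKMYT1, and the transcription factor gene FOXM1. They were taken by name from the deposited tables, which list all 10 among 22794 genes, and all 10 passed the filter on low values. The series sequenced poly(A) RNA from CAL-51, a cell line established from a human breast carcinoma, in 3 p27-positive and 3 p27-negative libraries. Both groups came from cells given a plasmid with a p27-mVenus reporter, which joins p27 to a fluorescent protein, and were then sorted on p27; the gate is not described. p27 is the inhibitor of cyclin-dependent kinases encoded by CDKN1B. Mock-transfected cells are not analysed here, so what the plasmid itself does cannot be told apart from the p27 state. The labels do not say that the 3 libraries of a group came from separate cultures, and p-values then measure only their spread, which may be technical. On the second principal component (14.4% of the variance) p27-negative replicate 3 lay at 53.9, apart from p27-negative replicates 1 (-28.6) and 2 (-24.5).

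CDK1 bound to cyclin B drives entry into mitosis, and cyclin A2 works with CDK2 in S phase and with CDK1 in G2. WEE1 and PKMYT1 hold CDK1 inactive by phosphorylating it beside its ATP site, and the CDC25 phosphatases remove those phosphates. Active CDK1 stimulates CDC25C and restrains WEE1, which makes the step switch-like. FOXM1 drives transcription of many of these genes in G2, and in resting cells the DREAM complex holds them down through a promoter element called the cell cycle genes homology region (CHR).

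Promoter stretches are shown for the members with an entry in the RefSeq promoter table (build GRCh38.p14), because these genes moved together and the CHR and the CCAAT box bound by NF-Y are the promoter elements most often tied to genes of this kind. The table matched 7 of the 10 members with 14 annotated starts, each with 250 bases before and 50 after the start, and 1 start is shown per gene. WEE1, PKMYT1 and FOXM1 were not matched. Each line runs 5′ to 3′ along the gene, from 140 bases before the start to 20 bases after it. Capitals mark the letters of the CHR (TTTGAA or TTCGAA), of the NF-Y box (CCAAT) and of 4 forms of an E2F site (TTTGGCGC or TTTCCCGC or TTTGCCGC or TTTCGCGC). Both strands were searched, so that ATTGG is a CCAAT on the other strand and TTCAAA is a CHR match on the other strand. No 2 matches overlap in the stretches shown.
CCNB2, chr15:59105006-59105165, plus strand: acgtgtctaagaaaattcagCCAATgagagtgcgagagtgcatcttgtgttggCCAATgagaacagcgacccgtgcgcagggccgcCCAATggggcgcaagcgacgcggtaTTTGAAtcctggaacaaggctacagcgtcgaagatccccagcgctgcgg
CDK1, chr10:60778338-60778497, plus strand: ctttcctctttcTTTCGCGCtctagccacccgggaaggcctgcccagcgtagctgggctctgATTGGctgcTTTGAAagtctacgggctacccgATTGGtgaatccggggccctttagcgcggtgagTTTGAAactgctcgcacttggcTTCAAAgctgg
CDC25C, chr5:138331785-138331944, minus strand: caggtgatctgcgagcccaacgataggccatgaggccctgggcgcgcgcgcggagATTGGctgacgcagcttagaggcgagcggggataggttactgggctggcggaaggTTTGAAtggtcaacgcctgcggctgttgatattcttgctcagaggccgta
CDC25B, chr20:3796170-3796329, plus strand: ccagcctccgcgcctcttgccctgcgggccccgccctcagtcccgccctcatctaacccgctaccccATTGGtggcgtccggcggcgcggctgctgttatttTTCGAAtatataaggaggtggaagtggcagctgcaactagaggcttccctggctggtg
CCNB1, chr5:69167010-69167169, plus strand: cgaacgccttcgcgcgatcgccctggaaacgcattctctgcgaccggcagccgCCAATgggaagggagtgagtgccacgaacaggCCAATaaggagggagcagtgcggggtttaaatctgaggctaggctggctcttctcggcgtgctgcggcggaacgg
CCNA2, chr4:121823864-121824023, minus strand: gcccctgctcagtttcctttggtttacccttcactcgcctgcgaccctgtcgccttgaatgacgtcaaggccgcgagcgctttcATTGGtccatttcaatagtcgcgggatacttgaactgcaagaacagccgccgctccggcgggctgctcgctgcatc
CDC25A, chr3:48188398-48188557, minus strand: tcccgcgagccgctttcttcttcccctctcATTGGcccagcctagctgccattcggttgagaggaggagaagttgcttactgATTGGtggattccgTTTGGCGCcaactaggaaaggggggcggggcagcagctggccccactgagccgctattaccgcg

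Counted by window, 10 of the 14 held a CCAAT, 6 a CHR match and 3 an E2F form. Of all 35116 promoter windows in the table, 34.6% held a CCAAT, 16.4% a CHR match and 3.31% an E2F form. Windows of 1 gene can overlap, so the 14 are not independent. Each of the 7 genes had a CCAAT in at least 1 window. CCNB2, CDK1, CDC25C and CDC25B had a CHR match, and CDC25A and CDK1 had an E2F form. Only the letters named above were searched. A gene without a match, such as CCNA2 for the CHR, may therefore still hold another form of the element. In CCNB2 the 3 CCAAT boxes nearest the start lay 33 bases apart, and the pairs in CCNB1 and CDK1 lay 32 bases apart. Same-strand neighbours 31 to 34 bases apart, a range chosen after these were seen, occurred in 0.98% of all windows. For CDK1, CDC25C and CDC25B the start shown is one of several and was chosen after its matches were seen. The first annotated starts of CDC25B and CDC25C held none of the letters searched, which says only that these letters are not in those windows.

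**Figure D1:**
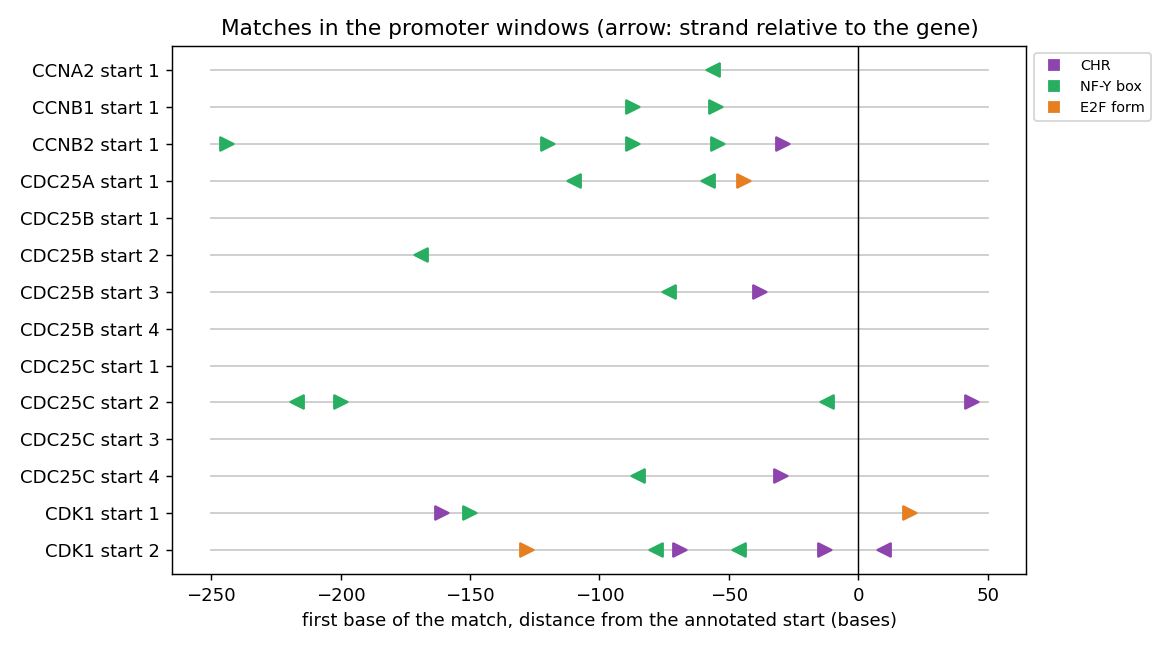
Matches in the 14 promoter windows of 7 members, one line per annotated start, numbered within each gene as the RefSeq table lists them. The horizontal axis is the distance in bases of the first base of a match from the start, purple marks the CHR, green the NF-Y box and orange the E2F forms, and arrows give the strand. The 3 evenly spaced boxes of CCNB2 lie before its CHR match.

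All 10 genes were lower in p27-positive cells, by 1.84-fold for CDC25B to 3.94-fold for CCNA2. Each passed limma's test across 15950 genes (Benjamini-Hochberg adjusted p of 3.5e-08 or less), against a background of 27.1% of all tested genes called lower. The p27-positive libraries lay below all p27-negative libraries for 10 of 10 members, against 29.1% of tested genes. At least 2-fold lower were 9 of 10 members, against 2.9% of tested genes. Of these members WEE1 lay closest to 2-fold (log2 fold change -1.02). It reached -0.88 under other processing, short of 2-fold, so this count depends on the setting. The median log2 fold change was -1.50 over the 10 members and 0.03 over all genes tested. Without p27-negative replicate 3 all 10 were still called lower by limma, where the log2 fold change of CDK1 was -1.85, the log2 fold change of WEE1 was -1.0002 and the log2 fold change of CDC25B was -0.85. Values are counts per gene scaled by the authors to library size (normalized counts), and each log2 fold change, given ± SE, subtracts the p27-negative mean from the p27-positive mean of log2(normalized count + 1). In bulk RNA a smaller share of cells in G2 and mitosis cannot be told apart from less of each transcript per cell.

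**Figure D2:**
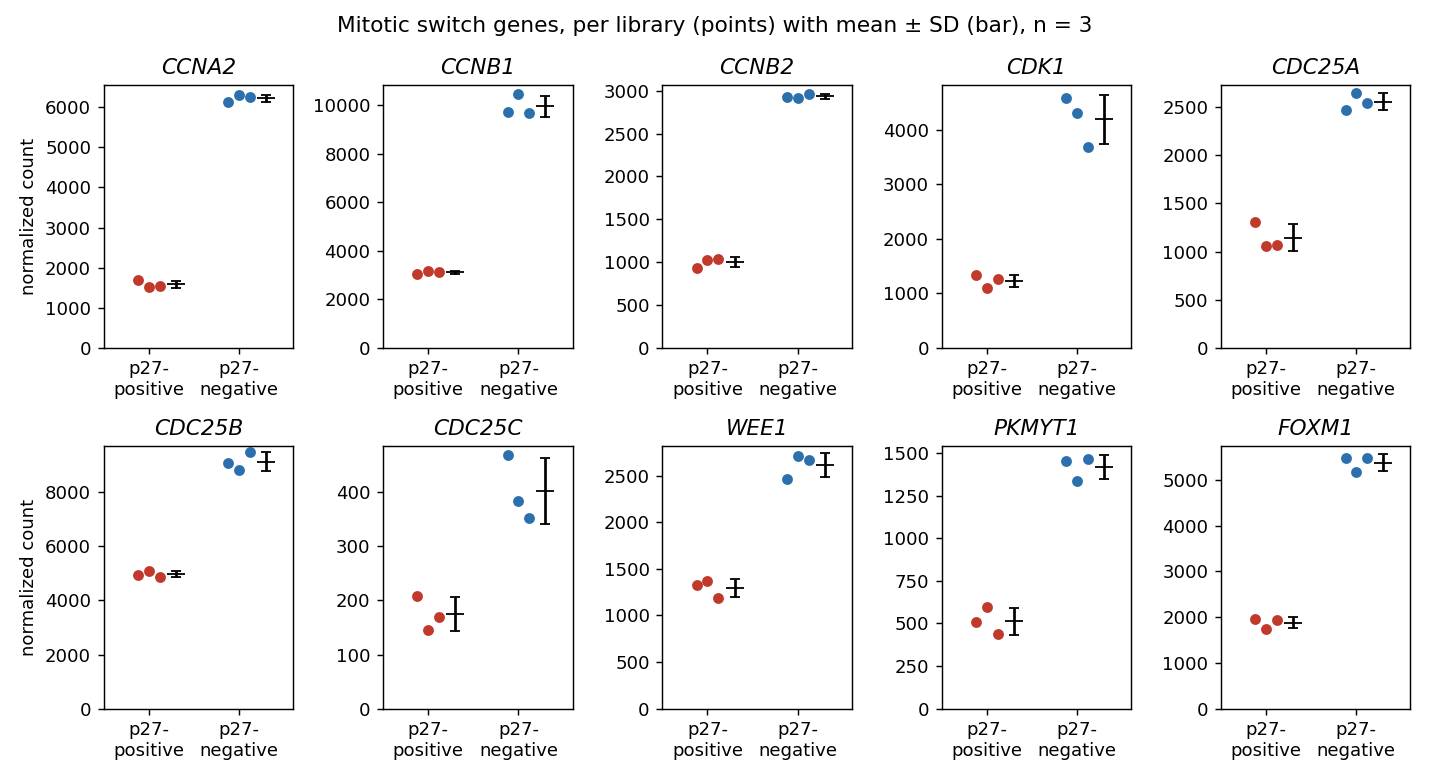
Normalized counts of the 10 genes in each library (points; red p27-positive, blue p27-negative), with mean ± SD of 3 libraries in black. In every panel the 3 p27-positive libraries lie below the 3 p27-negative libraries, by the widest factor for CCNA2 (3.94-fold).

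Of the 10 genes CCNA2 fell most. CCNA2, which encodes cyclin A2 (ENSG00000145386, chromosome 4, 121816444 to 121823883, hg38), had 1681, 1520 and 1543 normalized counts in p27-positive libraries, against 6129, 6300 and 6257 in p27-negative libraries. The groups were far apart and each was tight, and the log2 fold change of -1.98 ± 0.05 (limma, adjusted p = 1.1e-29) was the 51st lowest of all 15950 genes. CCNB1, which encodes the main mitotic cyclin B1 (ENSG00000134057, chromosome 5, 69167135 to 69178245), had 3047, 3153 and 3139 normalized counts in p27-positive libraries, against 9738, 10465 and 9683 in p27-negative libraries. Its log2 fold change was -1.68 ± 0.04 (limma, adjusted p = 3.8e-30). CCNB2, which encodes cyclin B2, found at the Golgi (ENSG00000157456, chromosome 15, 59105126 to 59125045), had 932, 1025 and 1043 normalized counts in p27-positive libraries, against 2931, 2913 and 2967 in p27-negative libraries. It fell by 1.56 on the log2 scale (SE 0.06; limma, adjusted p = 5.4e-23), and the p27-negative libraries differed by a coefficient of variation of only 0.929%.

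The catalytic partner of these cyclins fell with them. CDK1 (ENSG00000170312, chromosome 10, 60778331 to 60794852) had 1328, 1107 and 1258 normalized counts in p27-positive libraries, against 4577, 4309 and 3688 in p27-negative libraries. The groups did not overlap, and replicate 3 was the lowest p27-negative library. The log2 fold change was -1.77 ± 0.07 (limma, adjusted p = 5.4e-24), between that of CCNA2 and that of CCNB1.

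The 3 phosphatase genes fell too, with log2 fold changes closer to 0 than that of CDK1. CDC25A, which acts at both G1/S and G2/M (ENSG00000164045, chromosome 3, 48157146 to 48188417), had 1307, 1063 and 1064 normalized counts in p27-positive libraries, against 2475, 2648 and 2545 in p27-negative libraries. Its log2 fold change was -1.16 ± 0.07 (limma, adjusted p = 1.4e-17), and p27-positive replicate 1 stood above the other two. CDC25B, which starts CDK1 activation at the centrosome (ENSG00000101224, chromosome 20, 3786772 to 3806121), had 4946, 5101 and 4875 normalized counts in p27-positive libraries, against 9094, 8817 and 9497 in p27-negative libraries. It changed least of the 10 (-0.88 ± 0.04; limma, adjusted p = 1.2e-21), but at 872nd lowest of 15950 it was still near the bottom of the list. CDC25C, the phosphatase that CDK1 itself activates (ENSG00000158402, chromosome 5, 138285269 to 138338355), had 208, 146 and 169 normalized counts in p27-positive libraries, against 470, 384 and 353 in p27-negative libraries. It had the fewest reads of the 10 (554 over the 3 p27-positive libraries) and the widest error (-1.21 ± 0.16; limma, adjusted p = 3.5e-08). The groups still did not overlap.

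The genes of the inhibitory kinases fell as well. WEE1, which encodes the nuclear kinase (ENSG00000166483, chromosome 11, 9573670 to 9593457), had 1324, 1371 and 1185 normalized counts in p27-positive libraries, against 2464, 2707 and 2670 in p27-negative libraries. Its log2 fold change was -1.02 ± 0.07 (limma, adjusted p = 8.3e-17), just past 2-fold. PKMYT1, which encodes the membrane-bound kinase MYT1 (ENSG00000127564, chromosome 16, 2968024 to 2980479), had 506, 594 and 435 normalized counts in p27-positive libraries, against 1453, 1334 and 1466 in p27-negative libraries. It fell by 1.48 on the log2 scale (SE 0.09; limma, adjusted p = 8.2e-17). FOXM1 (ENSG00000111206, chromosome 12, 2857680 to 2877174) had 1962, 1736 and 1928 normalized counts in p27-positive libraries, against 5473, 5162 and 5486 in p27-negative libraries. Its log2 fold change of -1.52 ± 0.05 (limma, adjusted p = 2.1e-25) lay beside that of CCNB2.

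**Figure D3:**
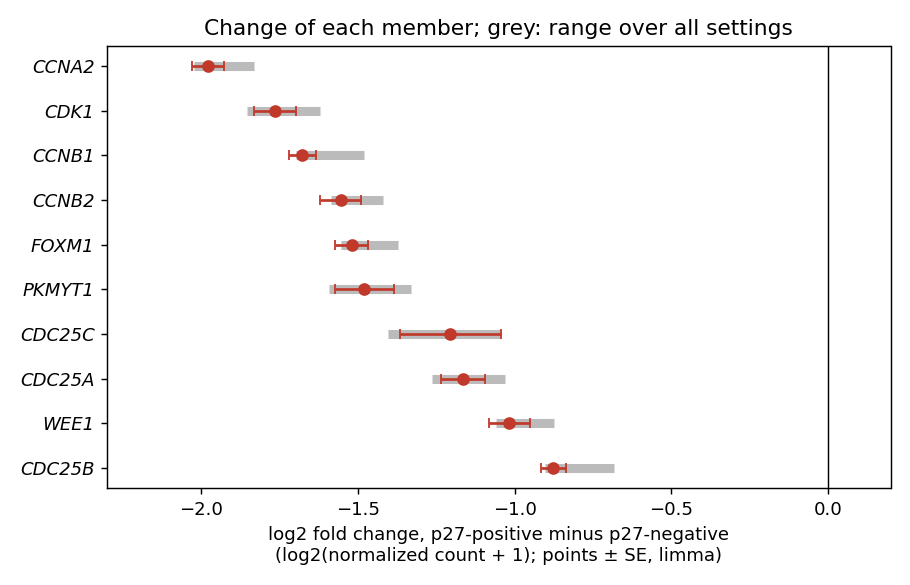
Log2 fold change, p27-positive minus p27-negative, of each of the 10 genes (points ± SE from limma), with the range over 18 other settings and the main one in grey. All points and ranges lie below 0. The points run from -1.98 for CCNA2 to -0.88 for CDC25B, and the ranges reach -2.02 for CCNA2 and -0.68 for CDC25B.

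Reads of genes on opposite strands cannot be told apart unless the counting used strand, and the strand setting is not given in the sources used here. In GENCODE 29, 31.6% of the exonic bases of PKMYT1 lie under exons of KREMEN2 or PAQR4 on the other strand, 15.9% of those of FOXM1 under ITFG2, 9.08% of those of CCNA2 under EXOSC9 and 8.78% of those of CDC25C under FAM53C. EXOSC9 (-1.15 ± 0.07) and PAQR4 (-1.09 ± 0.12) fell, FAM53C rose (0.40 ± 0.07), and KREMEN2 (0.37 ± 0.20; limma, adjusted p = 0.13) and ITFG2 (-0.14 ± 0.13; limma, adjusted p = 0.37) did not pass. The part of shared reads in the members' values was not tested. CCNB1, CCNB2, CDK1, CDC25A and CDC25B share no exonic base with another gene of that annotation, but CCNB2 has a processed pseudogene, CCNB2P1, which could take some of its reads.

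Per length, the 10 genes spanned a wide range of levels. In FPKM, reads scaled to gene length and library size, CCNB1 averaged 55.1 ± 1.45 in p27-positive libraries and 161 ± 6.79 in p27-negative libraries (SD, n = 3 each), and CDC25C, the lowest, 2.25 ± 0.39 in p27-positive libraries and 4.75 ± 0.71 in p27-negative libraries. In p27-positive cells CCNB1 and CDC25B (54.9 ± 1.59 FPKM) overlapped at the top, with CCNA2 (24.8 ± 1.17 FPKM) below them. FOXM1 (16.4 ± 0.95), CCNB2 (15.6 ± 1.03), CDK1 (13.5 ± 1.14) and CDC25A (11.9 ± 1.36) followed, and each overlapped the next in that order. WEE1 (6.02 ± 0.46), PKMYT1 (4.43 ± 0.71) and CDC25C stood apart from each other at the bottom. In p27-negative cells CCNB1 stood alone, and CDC25B (92.0 ± 3.66 FPKM) and CCNA2 (89.1 ± 1.31) overlapped. FOXM1 (43.0 ± 1.53), CDK1 (42.2 ± 4.5) and CCNB2 (42.0 ± 0.49) formed a group, above CDC25A (24.2 ± 0.81), and PKMYT1 (11.2 ± 0.59) and WEE1 (11.1 ± 0.56) overlapped. Summed over the 10 genes, the level was 203 to 206 FPKM in p27-positive libraries and 518 to 525 FPKM in p27-negative libraries.

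CDC25B and CCNB1 were the most abundant genes of their families in both groups. CDC25B made up 79.5% ± 2.23 of the FPKM of the 3 CDC25 genes in p27-positive libraries and 76.0% ± 1.10 in p27-negative libraries (SD, n = 3 each), and the groups overlapped. The share of CDC25A was 17.2% ± 1.72 in p27-positive libraries and 20.04% ± 1.01 in p27-negative libraries, with no overlap. The gap was narrow, with p27-positive replicate 1 at 19.2% and p27-negative replicate 1 at 19.5%. CCNB1 held 77.9% ± 0.73 of the 2 cyclin B genes in p27-positive libraries and 79.3% ± 0.83 in p27-negative libraries, and these overlapped. CCNA2 held 25.9% ± 1.58 of the 3 cyclin genes in p27-positive libraries and 30.5% ± 0.54 in p27-negative libraries, with no overlap. WEE1 was 57.8% ± 2.11 of the summed FPKM of WEE1 and PKMYT1 in p27-positive libraries and 49.8% ± 2.26 in p27-negative libraries, again with no overlap. Differences in these shares were not tested.

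Ratios between members within a library do not depend on how libraries are scaled. The FPKM ratio of WEE1 to CDK1 was 0.421, 0.523 and 0.398 in p27-positive libraries, against 0.228, 0.266 and 0.306 in p27-negative libraries. It was 1.68-fold higher in p27-positive cells, higher in 3 of 3 libraries, with an exact two-sided permutation p = 0.1, the smallest that 3 against 3 libraries allow, and p = 0.33 after Benjamini-Hochberg adjustment over 10 ratios. The ratio of WEE1 to CDC25B was 0.113, 0.113 and 0.103 in p27-positive libraries, against 0.114, 0.130 and 0.119 in p27-negative libraries, a difference of -0.14 on the log2 scale at the same exact p. The other 8 ratios overlapped between groups. The ratio of CCNB1 to CDK1 differed by 0.09 on the log2 scale (exact permutation p = 0.5), that of CCNA2 to CDK1 by -0.21 and that of FOXM1 to CDK1 by 0.25 (exact permutation p = 0.2 for both). PKMYT1 to CDK1 differed by 0.28 (exact permutation p = 0.3), with p27-positive replicate 2 well above the other libraries. Leaving out 1 library moved 8 of the 10 differences by over 1.5 times. Without p27-positive replicate 2 the difference was 0.0046 for CCNB1 to CDK1 and 0.097 for PKMYT1 to CDK1, and without p27-negative replicate 1 it was 0.0061 for CCNB1 to CDK1. Also for CCNB1 to CDK1, it was 0.161 without p27-positive replicate 1 and 0.158 without p27-negative replicate 3. For CCNA2 to CDK1 it was -0.121 without p27-negative replicate 3. For WEE1 to CDC25B it was -0.089 without p27-negative replicate 2 and -0.093 without p27-positive replicate 3. WEE1 to CDK1 and FOXM1 to CDK1 moved by less than 1.5 times without any 1 library.

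**Figure D4:**
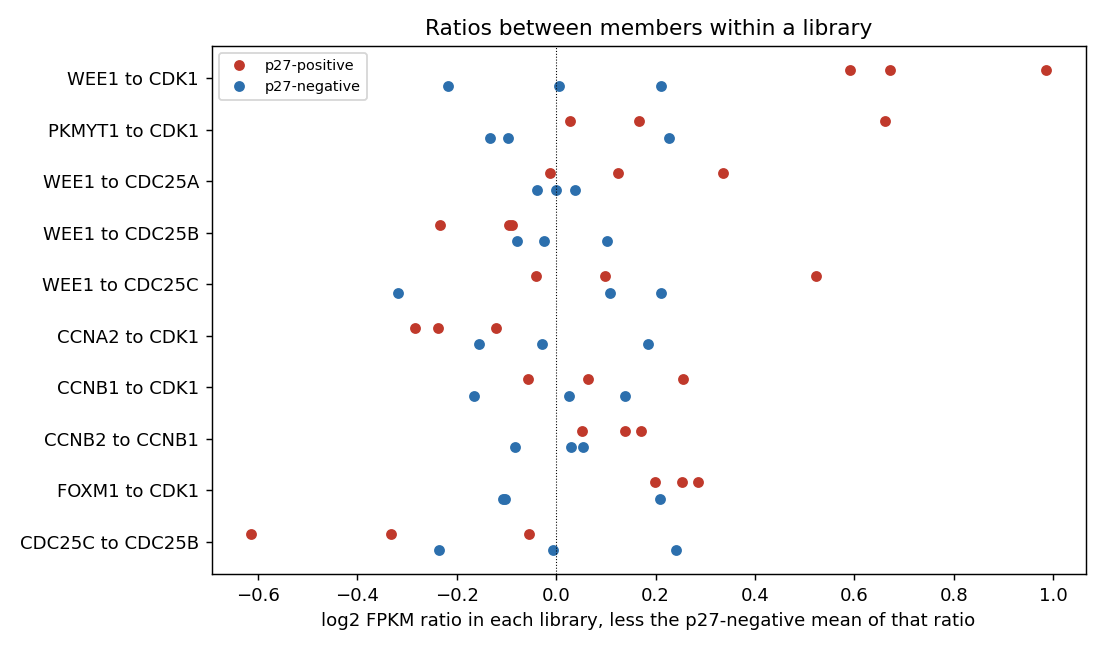
Log2 ratio of the FPKM values of 2 members in each library, less the p27-negative mean of that ratio (red p27-positive, blue p27-negative). The WEE1 to CDK1 ratio is set apart between groups (1.68-fold), while that of CCNB1 to CDK1 overlaps.

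Genes whose 6 values ran closest to those of CDK1, of 12103 genes whose mean was 50 normalized counts or more, were the spindle gene SKA1, the centromere gene HJURP, the centriole kinase gene PLK4, the condensin gene SMC4 and the spindle motor gene KIF11. Their Euclidean distances on centred log2 values were 0.179 to 0.231 and their log2 fold changes -1.69 to -1.76. Closest to WEE1 were RNF26, the replication origin gene ORC6, the condensin gene NCAPD2, the histone methyltransferase gene EZH2 and the kinesin gene KIF24, at distances of 0.118 to 0.134 and log2 fold changes of -0.998 to -1.06. The 6 libraries form 2 groups, so a gene with a like group difference has a like profile.

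Regulators of the CDK1 switch, listed together whether they promote or oppose CDK1, fell or did not pass. Of 26 measured regulators 20 were lower and 0 were higher with limma (0 higher at an unadjusted p under 0.05, and 0 with edgeR or DESeq2), with a median of -0.32. The background was 25.5% of all tested genes called higher and 27.1% lower. PLK1, the kinase that activates CDC25C and marks WEE1 for destruction, averaged 1447 ± 35.6 normalized counts in p27-positive cells and 5257 ± 102 in p27-negative cells (SD, n = 3 each; -1.86 ± 0.05). AURKA, which activates PLK1, changed by -1.66 ± 0.05, its cofactor BORA by -1.46 ± 0.14, the F-box gene CCNF by -1.39 ± 0.06 and MASTL, the Greatwall kinase gene that restrains the phosphatase opposing CDK1, by -1.05 ± 0.10. The CDK subunit gene CKS1B (-1.12 ± 0.06) and the phosphatase gene PPP1CC (-0.70 ± 0.04) fell. Of the genes of the CDK-activating kinase, MNAT1 fell by 0.59 on the log2 scale (SE 0.10) and was called in all 19 settings. CDK7 (-0.22 ± 0.09) and CCNH (-0.26 ± 0.10) were also called lower, as was the phosphatase scaffold gene PPP2R1A (-0.10 ± 0.04), but these 3 calls were lost in 9, 7 and 8 of the 19 settings. This list depends on scaling. Scaled to the library total, which moved the median of all tested genes by 0.13, 2 of the 26 were higher and 16 lower, with quantile normalization 4 were higher and 17 lower, and PPP2R1A turned to 0.033 with the first and 0.13 with the second.

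Most brakes on the switch fell and a few rose. Of 19 tested checkpoint and inhibitor genes 3 were higher and 13 lower, against 25.5% and 27.1% of all tested genes, with a median of -0.42. CDKN1A, which encodes the CDK inhibitor p21, averaged 9995 ± 398 normalized counts in p27-positive cells and 2692 ± 140 in p27-negative cells (SD, n = 3 each), a rise of 1.89 ± 0.05 on the log2 scale. ATM rose by 0.30 ± 0.06 and the 14-3-3 gene YWHAG by 0.14 ± 0.04, a call lost without the trended prior (limma, adjusted p = 0.073). CHEK1, the checkpoint kinase that inhibits CDC25 proteins, changed by -1.37 ± 0.09, its adaptor CLSPN by -1.63 ± 0.07, TOPBP1 by -1.07 ± 0.05 and the 14-3-3 gene YWHAE by -0.54 ± 0.03. CDKN1B mRNA was at -0.35 ± 0.07, a call lost in the FPKM table (limma, adjusted p = 0.0695). The reporter also carries p27, and whether its reads entered the CDKN1B value was not tested. The stress-response gene GADD45B fell by 1.41 on the log2 scale (SE 0.14). Its relative GADD45A (0.11 ± 0.07; limma, adjusted p = 0.21; not called in 14 of 19 settings) and the G2 brake gene SFN (-0.09 ± 0.34; limma, adjusted p = 0.85) did not pass.

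Transcription factors of mitotic genes fell with FOXM1, 12 of 14 lower and 1 higher, with a median of -0.71. Of all tested genes 27.1% were called lower and 25.5% higher. MYBL2, which encodes B-Myb, a partner of FOXM1, averaged 4439 ± 138 normalized counts in p27-positive cells and 13543 ± 201 in p27-negative cells (SD, n = 3 each; -1.61 ± 0.04). E2F8 (-1.48 ± 0.11), E2F1 (-1.11 ± 0.06) and TFDP1 (-0.94 ± 0.04) fell. NFYA, a subunit of the factor that binds the CCAAT boxes shown above, rose by 0.24 ± 0.07, a call lost without the trended prior (limma, adjusted p = 0.061) and without p27-positive replicate 1 (0.18; limma, adjusted p = 0.068), while NFYB (-0.59 ± 0.07) and NFYC (-0.41 ± 0.07) fell. All 20 of 20 listed FOXM1 targets outside the members were lower with limma, against 27.1% of all tested genes. Their median was -1.65 (0 higher at an unadjusted p under 0.05, and 0 with edgeR or DESeq2). CDC20, the mitotic activator of the anaphase-promoting complex, changed by -1.79 ± 0.04 and the kinetochore gene CENPF by -1.64 ± 0.04. The spindle genes TPX2 (-1.61 ± 0.04) and TACC3 (-1.53 ± 0.05) followed. CENPB (-0.46 ± 0.05) and SKP2 (-0.59 ± 0.06) were the smallest changes. The largest was PRC1 (-2.35 ± 0.44), at only 18.1 normalized counts in p27-positive cells and 85.6 in p27-negative cells. The list was chosen with earlier results of these data known.

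Genes of the G1 cyclins and kinases went both ways. Of 5 tested G1 genes 2 rose and 3 fell, against 25.5% of all tested genes called higher and 27.1% lower. CCNE1, which encodes cyclin E1, averaged 2080 ± 42.1 normalized counts in p27-positive cells and 1307 ± 102 in p27-negative cells (SD, n = 3 each; 0.67 ± 0.07), and CCND1 rose by 0.13 ± 0.03, a call lost without the trended prior (limma, adjusted p = 0.073). CCNE2 (-1.47 ± 0.15), CCND3 (-0.58 ± 0.07) and CDK4 (-0.38 ± 0.04) fell. Whether they differ from the mitotic cyclins was not tested.

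**Figure D5:**
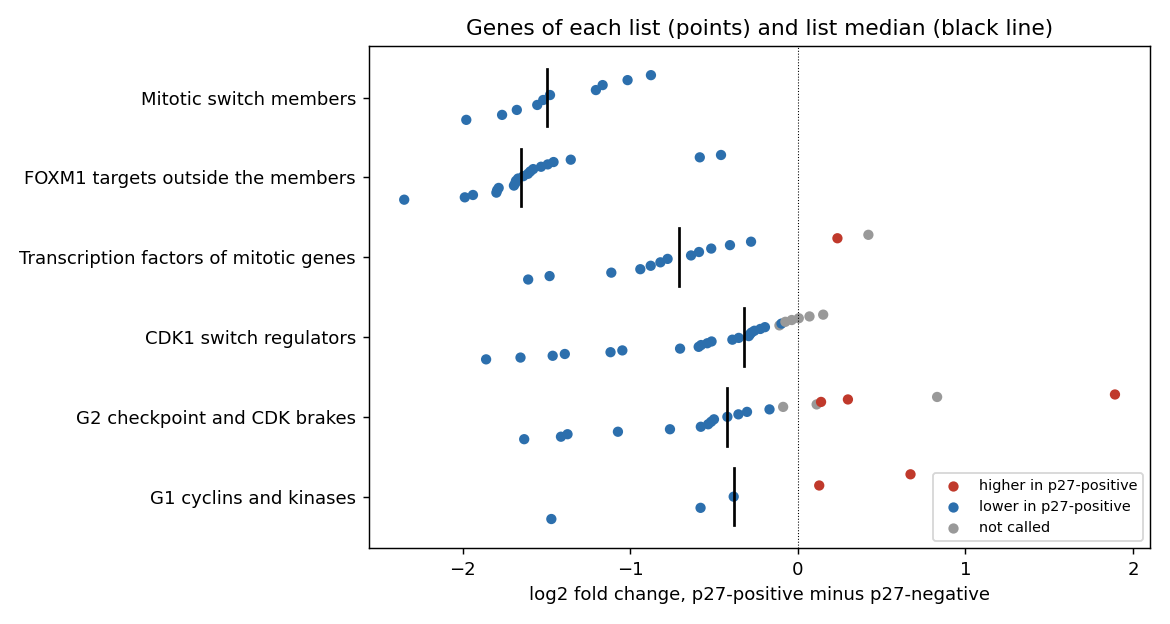
Log2 fold changes, p27-positive minus p27-negative, of the genes of 6 lists (points; blue lower, red higher, grey not called by limma), with the list median as a black line. The median is -1.50 for the members and -1.65 for the FOXM1 targets, and CDKN1A (1.89) is the farthest point to the right.

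Library totals were 22216934 to 28609257 reads assigned to listed genes, and the 6 pairs within a group differed beyond counting error, at 4.87 to 5.76 chi-square units per degree of freedom. Checked against markers of a mesenchymal-like breast line, the keratin gene KRT8 was at 544 FPKM in p27-positive libraries and 327 FPKM in p27-negative libraries. VIM was at 18.0 FPKM in p27-positive libraries and 19.4 FPKM in p27-negative libraries, while CDH1, ESR1, CDH2 and FN1 were at or near 0 (0.11 FPKM or less). KRT18 was at 473 FPKM in p27-positive and 369 FPKM in p27-negative libraries, and ERBB2 at 20.741 and 15.005 FPKM. EPCAM was at 10.4 FPKM in p27-positive and 11.7 FPKM in p27-negative libraries, and ZEB1 at 4.26 and 5.28 FPKM. Markers of this list were thus both present and near 0, and how far they bear out the name mesenchymal-like was not tested. Of 5 leukocyte markers only PTPRC was analysed, at 12.2 to 18.2 normalized counts in p27-positive and 16.02 to 34.2 in p27-negative cells. The 4 endothelial and fibroblast markers analysed summed to 4387 to 4685 normalized counts in p27-positive cells, against 2763 to 2878 in p27-negative cells, nearly all from CDH5 and VWF. PECAM1 was at 0 to 6.95 normalized counts in p27-positive cells and 0 to 8.9 in p27-negative cells. Their part in the results above was not tested.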

How the data were processed

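Poly(A) RNA of 3 p27-positive and 3 p27-negative libraries was prepared with a stranded kit, per the labels' protocols. The submitters' processing notes name STAR, featureCounts, DESeq2 and hg38. Tool versions, gene annotation and strand setting: not given in the sources used here. Per the file headers, the signal of the first deposited table is a read count that the authors divided by DESeq2's size factor of its library. The second deposited table holds FPKM computed by the authors. Values of the first were whole multiples of 1 step per library (100% within 1e-06), and the reads recovered from them entered only the edgeR and DESeq2 alternatives. The tables held 0 columns of other samples.

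Genes were tested two-sided with limma 3.58.1 (R 4.3.3, trended prior) on log2(normalized count + 1). The model held group alone, the 15950 genes averaging 10 or more normalized counts were tested, and a call needed a Benjamini-Hochberg adjusted p under 0.05 over all of them. The test was also run on counts simulated with a fixed spread, known library sizes and few changed genes. That setting differs from these data and cannot check their scaling. Ratios used exact permutation tests in scipy 1.17.1. Exon overlaps came from GENCODE 29 and promoters from RefSeq. Alternatives changed the pseudocount (0.5 or 5) or the filter (none, or 50), used quantile normalization, rescaled to the upper quartile or to library totals, or tested log2(FPKM + 0.1) for genes averaging 0.5 FPKM or more. Others dropped the trend, added the replicate number as a block, used edgeR 4.0.16 or DESeq2 1.42.0, or left out each library.

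The members and lists were chosen with earlier results of these data known. Genes named are the 10 members, up to 4 of each list with the smallest p, genes called against their list's majority, 10 switch and brake genes (PLK1, AURKA, CHEK1, MASTL, CDKN1A, CDKN1B, GADD45A, SFN, MYBL2 and CDC20), and the 5 genes nearest in profile to CDK1 and to WEE1. BORA, CKS1B, CDK7, CCNH, MNAT1, PPP2R1A, ENSA, GADD45B, NFYB, NFYC, CENPB, SKP2, PRC1, UBE2C, ANAPC10 and FZR1 were added after their values were seen, and the opposite-strand partners follow from position.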

Additional observations from a re-analysis of the deposited data

How the results depend on the processing

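All 10 members were called lower under each of the 18 alternatives, and the 180 log2 fold changes kept their direction and their side of the threshold. CCNA2 ran from -2.02 to -1.83, CDK1 from -1.85 to -1.62, WEE1 from -1.06 to -0.88 and CDC25B from -0.90 to -0.68. The FPKM table, which tested 14195 genes, called 2832 genes lower against 4318, with 4145 higher against 4067, and scaling to the library total called 3114 lower and 5343 higher. The count of CDK1 switch regulators called higher was 4 with quantile normalization, 2 with upper-quartile rescaling, 2 with scaling to the library total and 1 in the FPKM table, against 0. It was 0 to 1 with a library left out (1 without p27-positive replicate 3 or p27-negative replicate 2). The log2 fold change of PPP2R1A, -0.10, turned to 0.13 with quantile normalization, 0.0145 with upper-quartile rescaling, 0.0328 with scaling to the library total and 0.0327 in the FPKM table, and the log2 fold change of ENSA, -0.037, turned to 0.14 (called), 0.076, 0.094 and 0.094 in the same order, the last 3 not called. The count of transcription factors of mitotic genes called higher was 0 without the trended prior, and 0 to 1 with a library left out (0 without p27-positive replicate 1). The cause was not tested. Leaving out 1 library turned the sign of 0 of the 10 within-library ratios but moved 8 by over 1.5 times. The log2 difference of WEE1 to CDC25C, 0.193, was 0.028 without p27-positive replicate 2, 0.034 without p27-negative replicate 1, 0.31 without p27-positive replicate 1 and 0.298 without p27-negative replicate 3. WEE1 to CDC25A, 0.149, was 0.056 without p27-positive replicate 2 and 0.23 without p27-positive replicate 1, CDC25C to CDC25B, -0.333, was -0.193 without p27-positive replicate 2 and -0.213 without p27-negative replicate 1, and CCNB2 to CCNB1, 0.121, was 0.079 without p27-negative replicate 2. Libraries with the same replicate number deviated from their group means with correlations of -0.0005 to 0.011. No shared deviation by number was thus seen, which cannot tell whether same-numbered libraries came from a shared culture. The fit with the replicate block called 4065 genes higher and 4330 lower and all 10 members lower. CDC25C, with 554 reads over the p27-positive libraries, is the member whose precision depth limits most.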

Other observations

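Subunits of the anaphase-promoting complex, which ends the life of the mitotic cyclins, mostly had log2 fold changes closer to 0 than the cyclins, a difference that was not tested. The 17 tested genes were those of the complex, its coactivator FZR1, the E2 enzyme UBE2S and its inhibitor. Of these 12 were lower and 1 was higher, against 27.1% of all tested genes lower and 25.5% higher. Their median was -0.35 on the log2 scale, p27-positive minus p27-negative. The coactivator CDC20 (-1.79 ± 0.04) and the E2 gene UBE2C (-1.68 ± 0.06) were counted with the FOXM1 targets and are not among the 17. The inhibitor gene FBXO5 (-1.42 ± 0.09) and the E2 gene UBE2S (-1.38 ± 0.05) had the lowest values of the 17. The subunit genes ANAPC10 (-0.80 ± 0.23, a call lost in 3 of 19 settings), ANAPC1 (-0.73 ± 0.05) and CDC27 (-0.65 ± 0.05) also fell, while ANAPC16 rose by 0.16 ± 0.06, a call lost in 4 of 19 settings. With FPKM values 2 of the 17 were higher and 8 lower, against 4145 higher and 2832 lower of all 14195 genes tested there. FZR1, the coactivator that works in G1, was at -0.51 ± 0.07.

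Of the relatives of the members 1 was called higher, 1 lower and 4 were not called. Of all 15950 genes tested, 4067 were called higher, 4318 lower and 7565 were not called. Among 6 tested relatives CDK2, the S phase partner of cyclin A2, averaged 1099 ± 14.7 normalized counts in p27-positive cells and 2216 ± 120 in p27-negative cells (SD, n = 3 each), a change of -1.01 ± 0.07 (limma, adjusted p = 1.7e-16). CDK16 rose by 0.19 ± 0.04, and CDK3, CDK5, CDK17 and CCNB3 did not pass limma's test. CDK3 averaged only 21.2 normalized counts in p27-positive cells and 18.2 in p27-negative cells, and CCNB3 38.6 and 39.0.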
